A study of Mus musculus with 14 samples.

Results

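The 9 genes described here encode 7 enzymes of haem synthesis (Alas1, Alad, Uros, Urod, Cpox, Ppox and Fech) and a pair of proteins that pass electrons to cytochromes P450 (Por and Cyb5a). Chromatin accessibility at these genes was measured by ATAC-seq, in which a transposase cuts and tags open DNA, in livers that had lost matrin-3 (Matr3, a nuclear protein that binds RNA and DNA) and in livers that had not. An interval, a 501 bp stretch of the mm10 genome in the deposited tables, was given to a gene if its midpoint lay inside the RefSeq gene, or otherwise if that gene was the closest protein-coding one and no more than 50000 bp away. By this rule the 9 genes held 111 of the 88203 intervals of the chow table and 176 of the 105801 intervals of the high-fat table. The liver knockout mice (LKO) carried floxed Matr3 alleles and an Albumin-Cre transgene, and their controls (flox) were littermates described only as floxed. All 14 animals were female. From the age of 7 weeks they received chow, or a diet with 60 kcal% fat, over 16 weeks. There were 3 LKO and 3 flox mice on chow, and 4 LKO and 4 flox mice on the high-fat diet (HFD). A fast of 12 h before collection is recorded for the HFD mice. The labels do not say whether chow mice were fasted. Albumin-Cre acts in hepatocytes, and whether any other liver cell type lost matrin-3 was not measured. Mice with Cre and no floxed allele were not analysed here.

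Haem synthesis begins in mitochondria, where Alas1 joins glycine and succinyl-CoA in the step that limits the rate of the pathway in liver. Alad condenses the product into porphobilinogen in the cytosol, Uros closes the porphyrin ring, Urod removes carboxyl groups, Cpox and Ppox oxidise the intermediates back in the mitochondrion, and Fech inserts the iron. Much of the haem made by hepatocytes goes into cytochromes P450, which receive electrons from the reductase Por and, for some substrates, from cytochrome b5 (Cyb5a). Alas1 is known as a fasting and drug responsive gene that haem itself represses.

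The gene starts of Alas1, Alad and Por are shown because open intervals lay over each of them and because these genes hold the largest differences or the most open interval described below. Each line gives the 250 bases before a RefSeq start (GRCm38.p6) in the direction of the gene. Capitals mark matches to the motifs searched, which in these lines are the E-box and, on either strand, the GC box.
Alas1, chr9:106247955-106248204, minus strand: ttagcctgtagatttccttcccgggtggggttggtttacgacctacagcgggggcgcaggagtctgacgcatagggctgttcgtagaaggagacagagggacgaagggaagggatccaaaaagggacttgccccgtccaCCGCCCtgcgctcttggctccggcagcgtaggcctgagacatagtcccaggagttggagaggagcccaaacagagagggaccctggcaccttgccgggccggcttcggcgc
Alad, chr4:62520064-62520313, minus strand: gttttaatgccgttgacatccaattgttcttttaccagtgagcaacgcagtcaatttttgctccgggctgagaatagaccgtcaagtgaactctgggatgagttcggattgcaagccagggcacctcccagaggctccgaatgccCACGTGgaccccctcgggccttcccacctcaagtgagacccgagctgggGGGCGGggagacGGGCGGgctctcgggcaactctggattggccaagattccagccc
Por, chr5:135688895-135689144, plus strand: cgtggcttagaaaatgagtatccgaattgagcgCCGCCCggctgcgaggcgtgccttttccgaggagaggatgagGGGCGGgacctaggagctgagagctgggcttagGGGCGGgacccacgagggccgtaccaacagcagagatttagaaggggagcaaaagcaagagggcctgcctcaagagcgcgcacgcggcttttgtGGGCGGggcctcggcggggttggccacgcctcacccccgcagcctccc
Just inside the Alas1 gene lay a match to CGCATGCG, the motif of the activator NRF1, in capitals in the next line.
Alas1, chr9:106247906-106247935, minus strand: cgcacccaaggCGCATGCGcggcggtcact
The RefSeq table held 10 start windows, each running from 250 bases before to 50 after a start, for 7 of the 9 genes. The NRF1 motif was in 2 of the 10, both of Alas1, and in 1.87% of all 32851 windows. The E-box CACGTG was in 4 of the 10 (both windows of Alad and 1 each of Urod and Uros), against 7.15% of all windows. The GC box, written GGGCGG, was in 7 of the 10, against 35.7%. A motif of the erythroid factor family, AGATAA, was in 1 of the 10, that of Cpox, against 11.2% of all windows. The CRE motif TGACGTCA was in 0 of the 10, against 1.79% of all windows. The HNF4-like motif CAAAGTCCA was also in 0, against 0.475%. The FOX motif TGTTTAC was likewise in 0, against 3.65%, and so was the nuclear receptor site TGACCT, against 16.3%. Both strands were searched for every motif, and a GC box can overlap another. The windows of a gene overlap for Alas1 and Alad, so 1 site can be counted in both.

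Counts within intervals summed to between 15.5 and 35.0 M per chow library and between 7.59 and 10.4 M per HFD library, so chow values rest on more counts per liver and HFD values on more livers. The pair of chow livers numbered 2, 1 LKO and 1 flox, had the fewest chow counts and stood apart on the first principal component, which carried 42.2% of the chow variance. Among HFD livers, LKO 1 and flox 3 lay nearest to the other genotype on the first component. The Matr3 gene itself held 7 intervals in each table and none was called. Its summed level was 87.7 to 93.4 CPM (counts scaled to library size) in chow LKO and 93.9 to 97.4 CPM in chow flox livers, and 75.6 to 84.7 CPM in HFD LKO and 72.9 to 103.0 CPM in HFD flox livers. The labels do not say which part of Matr3 is deleted, and accessibility around a gene is no measure of its deletion. Summed over 7 hepatocyte marker genes, accessibility was 4240 to 5010 CPM in chow LKO and 5320 to 6690 CPM in chow flox livers, which did not overlap. However, 1 of 350 marker intervals passed the test, an Alb interval that was higher in LKO, beside 0.0227% of all chow intervals. On HFD the hepatocyte sums overlapped, at 3590 to 5030 CPM in LKO and 2870 to 6120 CPM in flox livers. Yet 34 of 378 marker intervals passed the test as lower and 1 as higher. Of all HFD intervals 0.303% passed as lower and 0.751% in either direction. The lower ones lay at Alb, Apob, Ass1 and Ttr and the higher one at Alb, and the median log2 fold change (LKO over flox) of the 378 was 0.008. Fewer hepatocyte nuclei and less accessible hepatocyte nuclei cannot be told apart in bulk liver.

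Each interval was tested with edgeR's quasi-likelihood test, and called when its p, adjusted over every interval of its table by Benjamini and Hochberg, was under 0.05. On chow, 0 of the 111 intervals were called, beside 0.0227% of all chow intervals, although 45 had an unadjusted p under 0.05, of which 17 lay lower and 28 higher in LKO. Of those 45, Alas1 held 16, Cyb5a 27, and Por and Ppox 1 each. DESeq2 called 12 of the 111 (7 of Alas1 and 5 of Cyb5a) and limma-voom 14 (5 of Alas1 and 9 of Cyb5a), where over all 88203 chow intervals DESeq2 called 544, limma-voom 677 and edgeR 20. On HFD, 1 of the 176 intervals was called, an Alad interval that was lower in LKO, beside 0.751% of all HFD intervals called in either direction and 0.303% called lower. Fold changes below are log2 of LKO over flox, with their standard error (SE). CPM values are given per liver in the order of the column numbers, and for chow those numbers name no labelled animal.

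**Figure D1:**
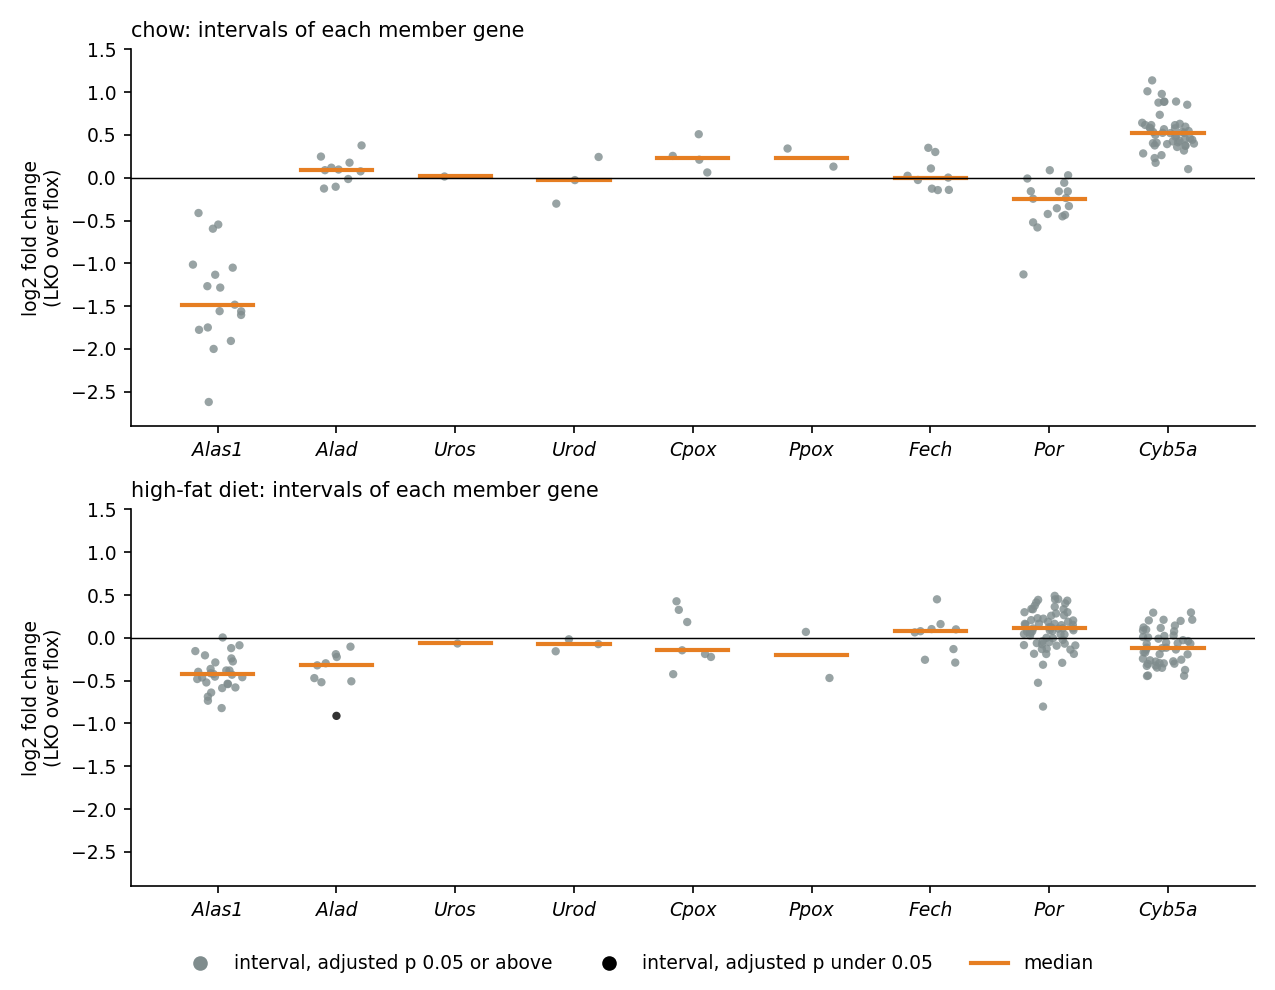
Log2 fold change (LKO over flox, y axis) of every interval of the 9 genes (x axis), on chow above and on high-fat diet below. Grey points are intervals, the black point is the called one, and orange bars are medians. Alas1 lies below 0 and Cyb5a above 0 throughout on chow, and the only black point is the Alad interval at -0.91 on high-fat diet.

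Alas1 had the largest fold changes of the 9 genes on chow. All 17 of its intervals lay lower in LKO than in flox livers, with log2 fold changes from -2.62 to -0.41 and a median of -1.48, while the median over all chow intervals was -0.0032. The interval with the smallest p, chr9:106234319-106234819 near the 3' end of the gene body, held 1.59, 2.01 and 1.56 CPM in LKO livers, against 10.7, 3.24 and 6.21 CPM in flox livers. The LKO livers were alike and low, the flox livers were spread, and the groups did not overlap. Its log2 fold change was -2.0 ± 0.38 (SE, n = 3 each), with an edgeR adjusted p of 0.173, so the difference did not pass the threshold.

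The lowest fold change of Alas1 on chow was at chr9:106244009-106244509 inside the gene, where LKO livers held 1.3, 1.0 and 1.36 CPM and flox livers 15.7, 2.79 and 4.16 CPM. The change there was -2.62 ± 0.57 (SE), with an edgeR adjusted p of 0.247. This interval was singled out after its values were seen. Its mean over all chow livers was 4.38 CPM, and that of the interval with the smallest p was 4.22 CPM, the lowest of the 17. The median of such means was 6.97 CPM. The most open Alas1 interval on chow, chr9:106236110-106236610 in the gene body, held 17.1, 15.0 and 15.9 CPM in LKO livers. Flox livers held 32.9, 15.1 and 24.3 CPM there, and the groups overlapped (-0.60 ± 0.23, SE; edgeR adjusted p 0.687). At the gene start, chr9:106247580-106248080, LKO livers held 16.0, 14.1 and 16.9 CPM and flox livers 28.0, 15.0 and 19.4 CPM. There the groups overlapped and the fold change was -0.41 ± 0.21 (SE; edgeR adjusted p 0.753), the smallest of the 17. The 16 intervals away from the start had a median of -1.52, and all 16 had an unadjusted p under 0.05.

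The flox livers set the width of the Alas1 difference on chow. Flox liver 1 was the highest of the 6 livers at all 17 intervals, and the median over the intervals was 17.6 CPM in it, 5.06 CPM in flox liver 2 and 8.85 CPM in flox liver 3. In LKO livers the medians were 3.05, 3.89 and 4.39 CPM. The groups did not overlap at 11 of the 17 intervals, beside 11.7% of all chow intervals. At an unadjusted p under 0.05, 16 of 17 lay lower, beside 3.77% of all chow intervals. All 17 lay on 1 side of 0, as did every interval of 5.7% of the 2142 genes with at least 10 chow intervals. Neighbouring intervals of a gene share the same livers and are not independent.

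The naming of the intervals bears on these counts. Each interval carries the genotype it was called in, and all 17 chow Alas1 intervals carried the flox name. Of all chow intervals with the flox name, 77.4% lay lower in LKO and 7.44% did so at an unadjusted p under 0.05. Of those with the LKO name, 76.4% lay higher in LKO. Name and direction thus moved together over the whole table, and the counts of directions given here are descriptions of chosen intervals.

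Flox liver 2 had the fewest counts of the flox group and lay nearest to the LKO livers by its Alas1 median. Leaving it out thus widens the difference by itself, so the values without it support nothing about Alas1. Without flox liver 2, 14 of the 17 Alas1 intervals passed the test as lower in LKO. The interval with the smallest p then stood at -2.32 (edgeR adjusted p 0.00277). Leaving out that liver also raised the calls over the whole chow table to 604, against 20 with all 6 livers. Without both chow livers numbered 2, 4 of the 17 passed, and that interval stood at -2.42 (edgeR adjusted p 0.0151). Over the 6 fits that each left out 1 liver its log2 fold change ran from -2.32 to -1.49, with edgeR adjusted p between 0.00277 and 0.572. The hepatocyte marker sums, given above, were also lower in chow LKO livers without overlap, and their part in the Alas1 difference was not tested.

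On HFD, Alas1 also lay lower in LKO livers, with smaller fold changes than on chow. The test of that difference between diets, given below, called no Alas1 interval. The tables of the diets hold different intervals, so levels were not compared between diets. Of its 28 HFD intervals 27 lay lower in LKO, with log2 fold changes from -0.82 to 0.0042 and a median of -0.43, beside a median of -0.0039 over all HFD intervals. An unadjusted p under 0.05 with a lower level in LKO was found at 17 of the 28, beside 4.8% of all HFD intervals. That number was 8 without flox liver 2, 11 without LKO liver 3 or without LKO liver 4, and 10 by DESeq2. None of the 28 passed the adjusted threshold.

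The HFD interval of Alas1 with the smallest p, chr9:106245144-106245644 inside the gene, held 24.6, 18.3, 13.2 and 13.0 CPM in LKO livers, against 41.4, 42.1, 16.3 and 22.4 CPM in flox livers. The groups overlapped, since LKO livers 1 and 2 lay above flox liver 3. Its log2 fold change was -0.82 ± 0.21 (SE, n = 4 each), with an edgeR adjusted p of 0.0606. At the start, chr9:106247569-106248069, LKO livers held 29.8, 27.9, 22.5 and 18.6 CPM and flox livers 31.6, 33.7, 28.5 and 25.9 CPM, a fold change of -0.28 ± 0.13 (SE; edgeR adjusted p 0.486). The groups overlapped at all 28 intervals. Flox liver 2 was the highest of the 8 livers at 22 of the 28 intervals, and LKO livers 3 and 4 were the lowest at 15 and 11.

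The most open Alas1 interval on HFD lay 1916 bp past the 3' end of the gene, at chr9:106231289-106231789. It held 63.3, 43.0, 42.7 and 47.5 CPM in LKO livers and 51.7, 68.7, 52.5 and 53.6 CPM in flox livers, and the groups overlapped. Of the 28 intervals 24 carried the flox name and all 24 lay lower in LKO. The other 4 carried the LKO name, and 3 of them lay lower too, 2 at an unadjusted p under 0.05, whereas 26.9% of all HFD intervals with the LKO name lay lower in LKO. Leaving out LKO liver 1 let 7 of the 28 pass the test as lower, and leaving out flox liver 3 let 5 pass. The whole HFD table then had 1126 and 1189 calls, against 795 with all 8 livers. LKO liver 1 had the highest Alas1 sum of its group and flox liver 3 the lowest of its group. Leaving out either of them thus widens the difference by itself. The interval with the smallest p ran from -1.04 to -0.62 over the 8 fits that each left out 1 liver, with edgeR adjusted p between 0.0029 and 0.314.

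**Figure D2:**
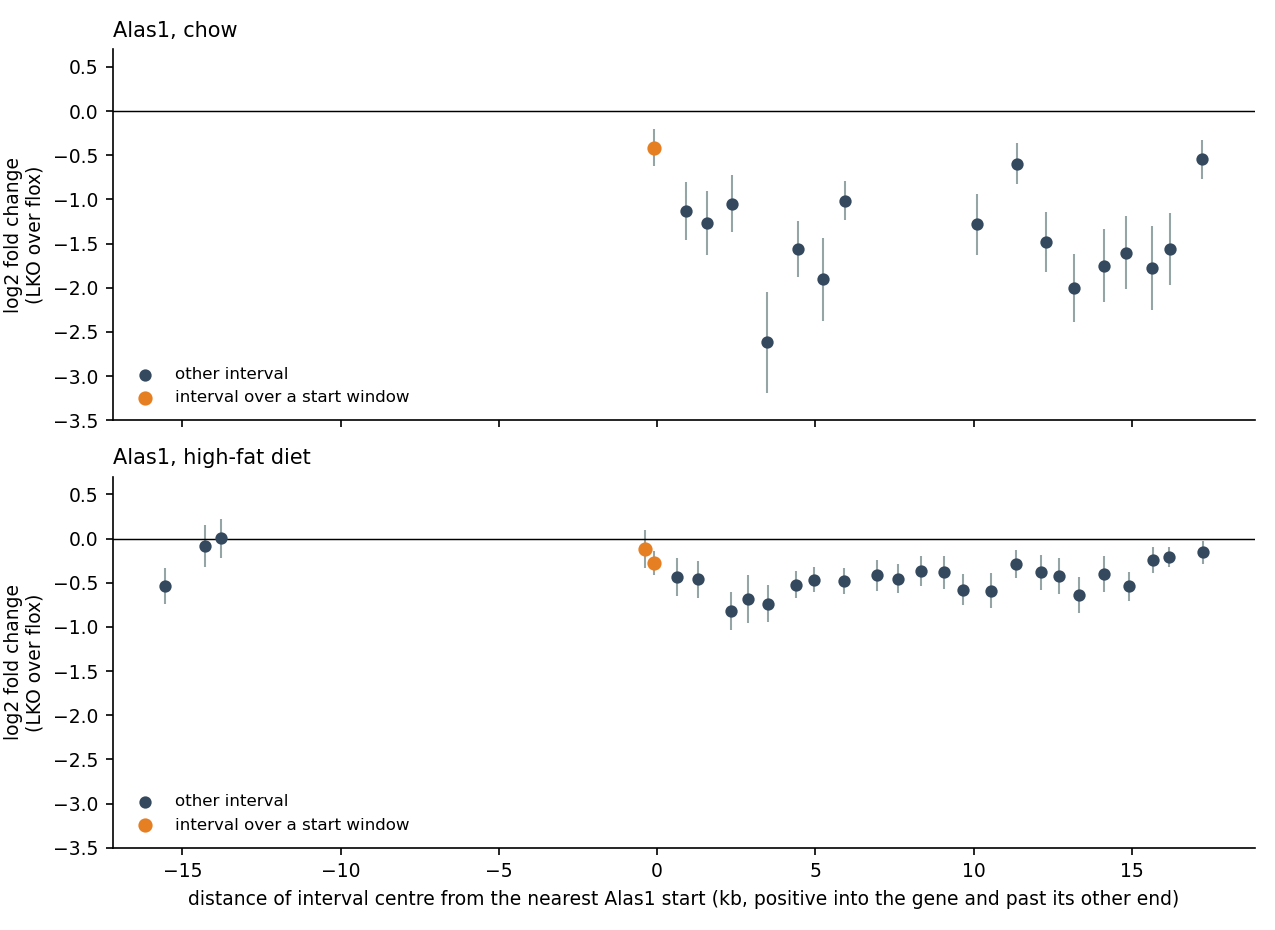
Log2 fold change (LKO over flox, y axis, bars are SE) of the Alas1 intervals against the distance of their centre from the nearest Alas1 start in kb (x axis), on chow above and high-fat diet below. Orange points lie over a start window. On chow the start lies nearest to 0 (-0.41), and the intervals inside and past the gene lie lower, down to -2.62. On high-fat diet the start lies at -0.28 and the lowest interval at -0.82, while other intervals lie on either side of the start's value.

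Alad, the second enzyme of the pathway, held the only called interval of the 9 genes. At chr4:62505984-62506484, at the 3' end of the gene, HFD LKO livers held 5.04, 7.28, 5.48 and 4.55 CPM, against 9.10, 10.7, 9.80 and 12.6 CPM in HFD flox livers. Every LKO liver was lower than every flox liver. The level fell in LKO by 0.91 ± 0.20 on the log2 scale (SE, n = 4 each; edgeR adjusted p 0.0194). Leaving out LKO liver 3 or 4 or flox liver 2 or 4 ended the call: the fold change over the 8 such fits ran from -1.07 to -0.81, with edgeR adjusted p between 0.0134 and 0.126.

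All 9 HFD intervals of Alad lay lower in LKO, with a median of -0.32 and a range of -0.91 to -0.10. Of these, 5 had an unadjusted p under 0.05, where 4.8% of all HFD intervals lay lower at that level. The groups did not overlap at 3 of the 9, beside 5.3% of all HFD intervals. All 9 carried the flox name. Of all HFD intervals with that name 73.9% lay lower in LKO, and 9.05% did so at an unadjusted p under 0.05. The most open of them, at the gene start (chr4:62519753-62520253), held 31.9, 32.9, 33.6 and 29.4 CPM in LKO livers and 30.7, 36.5, 34.3 and 35.7 CPM in flox livers, and the groups overlapped. On chow, 7 of 10 Alad intervals lay above 0 and 3 below, with a median of 0.09, and none had an unadjusted p under 0.05. The chow interval with the smallest p, chr4:62516757-62517257 in the gene body, held 21.6, 15.2 and 28.9 CPM in LKO livers and 17.2, 15.4 and 18.2 CPM in flox livers (0.38 ± 0.21, SE; edgeR adjusted p 0.763). Chow LKO liver 3 was the highest of the 6 livers at 8 of the 10 Alad intervals.

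**Figure D3:**
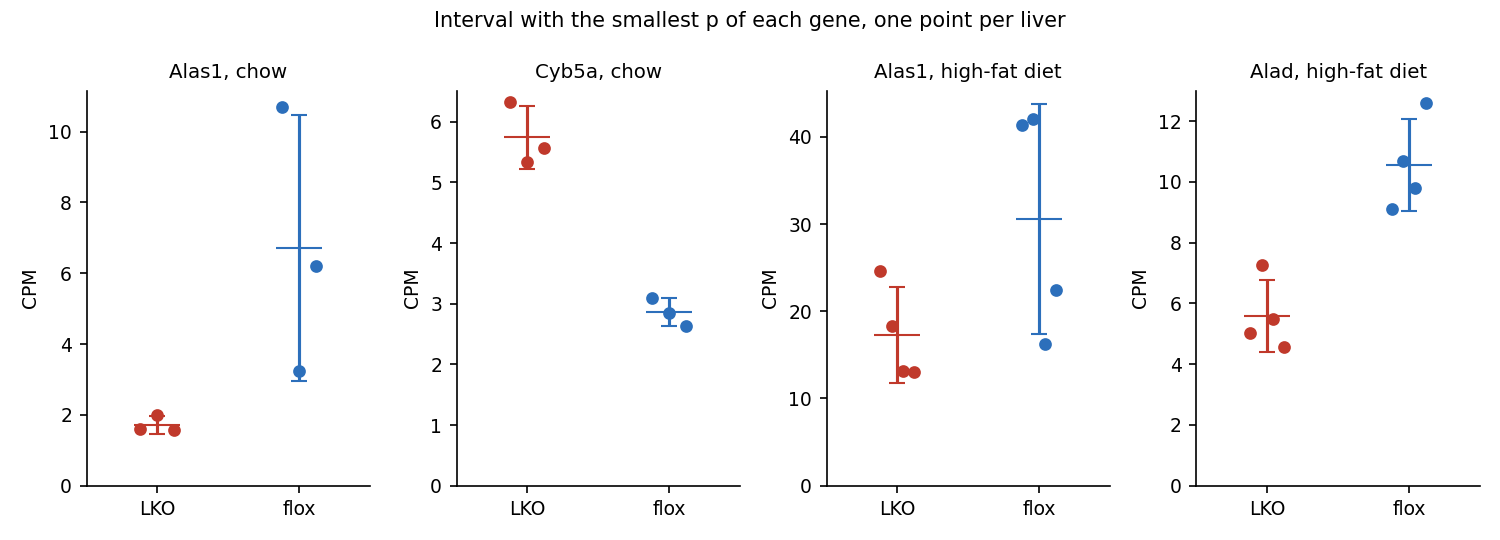
CPM (y axis, from 0) of the interval with the smallest p of Alas1 and Cyb5a on chow and of Alas1 and Alad on high-fat diet, 1 point per liver with mean and SD, LKO left and flox right. The groups are apart at the chow intervals of Alas1 and Cyb5a and at the called Alad interval, and overlap at the high-fat interval of Alas1.

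Uros, Urod, Cpox, Ppox and Fech, which carry out the later steps, had few intervals and no called one. Uros had 1 interval in each table, over its start at chr7:133708782-133709282 on chow, with 26.2, 23.1 and 27.5 CPM in LKO livers and 23.1, 23.3 and 29.2 CPM in flox livers. On HFD the Uros interval (chr7:133708791-133709291) held 25.3 to 32.2 CPM in LKO livers and 27.8 to 30.5 CPM in flox livers. The groups overlapped on both diets, with fold changes of 0.02 ± 0.14 and -0.06 ± 0.11 (SE; edgeR adjusted p 0.975 and 0.917). The start of the neighbouring gene Bccip lies beside that of Uros, so accessibility there cannot be told apart between them.

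Urod had 3 intervals in each table. Its chow interval with the smallest p, chr4:116991336-116991836 in the gene body, held 5.39, 5.83 and 6.33 CPM in LKO livers and 6.76, 8.19 and 6.79 CPM in flox livers. The groups did not overlap, yet the fold change of -0.30 ± 0.18 had an edgeR adjusted p of 0.772. The HFD counterpart (chr4:116991341-116991841) held 5.52 to 8.15 CPM in LKO and 5.99 to 8.78 CPM in flox livers, which overlapped (-0.16 ± 0.21, SE; edgeR adjusted p 0.871). The Urod start held 11.9 to 12.2 CPM in chow LKO and 11.4 to 12.8 CPM in chow flox livers.

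Cpox had 4 chow and 7 HFD intervals. The chow interval with the smallest p lay 10332 bp past the gene, at chr16:58690473-58690973, with 4.54, 5.39 and 3.77 CPM in LKO livers and 3.38, 3.47 and 2.75 CPM in flox livers. All LKO livers were above all flox livers, at 0.51 ± 0.24 (SE; edgeR adjusted p 0.744). On HFD the smallest p was at chr16:58684457-58684957, also past the gene, with 6.22, 7.06, 6.27 and 6.82 CPM in LKO livers and 5.39, 3.90, 6.03 and 4.38 CPM in flox livers. The groups were again apart, at 0.43 ± 0.22 (SE; edgeR adjusted p 0.522). The most open Cpox interval, near the gene start (chr16:58670628-58671128), held 16.0, 12.8 and 18 CPM in chow LKO and 12.2, 9.96 and 17 CPM in chow flox livers, which overlapped.

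Ppox, whose start lies close to those of other genes, had 2 intervals in each table. On chow its start interval, chr1:171281104-171281604, held 33.9, 27 and 34.7 CPM in LKO livers and 24.1, 22.4 and 29.1 CPM in flox livers. The groups overlapped through LKO liver 2 and flox liver 3, and the fold change was 0.34 ± 0.15 (SE; edgeR adjusted p 0.731). On HFD the start interval held 21.7 to 24.5 CPM in LKO and 19.6 to 24.5 CPM in flox livers. The HFD interval of Ppox with the smallest p, chr1:171280178-171280678, held 2.48 to 3.65 CPM in LKO and 2.64 to 6.63 CPM in flox livers, which overlapped (-0.47 ± 0.31, SE; edgeR adjusted p 0.66).

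Fech had 9 intervals in each table, and none had an unadjusted p under 0.05 on either diet. Its most open interval, at chr18:64488770-64489270 beside a gene end, held 35.2, 32.0 and 39.7 CPM in chow LKO and 33.4, 27.4 and 38.3 CPM in chow flox livers. On HFD the same place (chr18:64488764-64489264) held 29.8 to 41.0 CPM in LKO and 27.1 to 38.7 CPM in flox livers. The smallest p of Fech was found within the gene body on both diets. At chr18:64476766-64477266 on chow the fold change was 0.35 ± 0.22 (SE; edgeR adjusted p 0.779). At chr18:64476775-64477275 on HFD it was 0.45 ± 0.24 (SE; edgeR adjusted p 0.533), and the groups overlapped in both tables.

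Por, the reductase that serves every microsomal P450, had the most open interval of all 9 genes, at its start. At chr5:135688663-135689163 chow LKO livers held 55.9, 55.1 and 50.8 CPM and chow flox livers 55.2, 61.2 and 64.2 CPM. At chr5:135688669-135689169 HFD LKO livers held 89.8, 77.9, 67.8 and 81.7 CPM and HFD flox livers 71.0, 77.5, 66.2 and 76.5 CPM. The groups overlapped in both tables.

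Por lay lower in LKO at 15 of 17 chow intervals, the start included, with a median over the 17 of -0.25. The smallest p was at chr5:135720971-135721471 in the gene body, with 3.44, 2.2 and 1.86 CPM in LKO livers and 4.89, 4.04 and 7.44 CPM in flox livers. The groups did not overlap and the fold change was -1.13 ± 0.31 (SE; edgeR adjusted p 0.406). Chow LKO liver 1 was the highest of the 6 livers at 9 of the 17 intervals. Without it 10 of the 17 lay lower at an unadjusted p under 0.05, against 1 with all 6 livers. Leaving out a high LKO liver lowers the LKO level by itself, so that count supports nothing about Por. On HFD, Por had 68 intervals, 48 above 0 and 20 below, with a median of 0.11 and a range of -0.80 to 0.49. Flox liver 3 was the lowest of the 8 livers at 34 of the 68. Over the 8 fits that each left out 1 liver, the number above 0 ran from 33 to 61. The smallest HFD p was at chr5:135681110-135681610, with 3.76, 7.28, 2.48 and 2.65 CPM in LKO livers and 6.07, 9.85, 6.53 and 5.99 CPM in flox livers. The groups overlapped through LKO liver 2, at -0.80 ± 0.28 (SE; edgeR adjusted p 0.221). Without that liver the interval passed the test at -1.25 (edgeR adjusted p 0.025). Leaving out the LKO liver nearest to the flox livers widens the difference by itself, so that value supports nothing about Por. That interval lay against the direction of most Por intervals on HFD.

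Cyb5a, the electron donor that helps some P450 reactions, lay higher in chow LKO livers at all 48 of its intervals, with log2 fold changes from 0.10 to 1.14 and a median of 0.52. An unadjusted p under 0.05 was found at 27 of the 48 as higher, beside 3.0% of all chow intervals, and the groups did not overlap at 20, beside 11.7% of all chow intervals. None passed the adjusted threshold. The interval with the smallest p, chr18:84876123-84876623 in the gene body, held 6.33, 5.33 and 5.57 CPM in LKO livers, against 3.09, 2.85 and 2.63 CPM in flox livers. Every LKO liver lay above every flox liver, and the fold change was 1.01 ± 0.21 (SE, n = 3 each; edgeR adjusted p 0.228).

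The most open Cyb5a interval on chow, chr18:84884932-84885432, lay 5311 bp outside the gene and held 55.7, 38.6 and 45.6 CPM in LKO livers and 31.9, 31.6 and 33.9 CPM in flox livers, which did not overlap. LKO liver 1 was the highest of the 6 livers at 39 of the 48 intervals. Without it 11 intervals lay higher at an unadjusted p under 0.05, and without LKO liver 3 it was 17. The number was 43 without LKO liver 2 and 42 without both livers numbered 2. LKO liver 2 had the lowest Cyb5a sum of the LKO livers, so leaving it out widens the difference by itself. Of the 48 intervals, 47 carried the LKO name. Of all chow intervals with that name, 76.4% lay higher in LKO and 5.94% did so at an unadjusted p under 0.05. As given above, 5.7% of genes with at least 10 chow intervals had every interval on 1 side of 0. On HFD, 33 of 49 Cyb5a intervals lay lower in LKO and 16 higher, none at an unadjusted p under 0.05, with a median of -0.12. The place that was most open on chow held 38.0, 35.2, 28.5 and 27.1 CPM in HFD LKO and 33.9, 37.9, 28.4 and 35.1 CPM in HFD flox livers, which overlapped. The HFD interval with the smallest p, chr18:84855838-84856338, held 4.05 to 9.49 CPM in LKO livers and 7.41 to 10.6 CPM in flox livers (-0.45 ± 0.22, SE; edgeR adjusted p 0.49).

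Counts were also summed over all intervals of a gene and tested over all genes. No member passed, beside 0.0% of 16021 genes on chow and 0.324% of 16367 genes on HFD. DESeq2 and limma-voom also called 0 members' sums on either diet. On chow 1048 genes, among them Alas1 and Cyb5a, had an unadjusted p under 0.05. Summed Alas1 held 99.4, 92.9 and 99.6 CPM in chow LKO livers, against 352, 123 and 188 CPM in chow flox livers, without overlap (-1.18 ± 0.30, SE; edgeR adjusted p 0.717). Without flox liver 2, the flox liver nearest to the LKO livers, the Alas1 sum passed the test at -1.47 (edgeR adjusted p 0.0211). Without flox liver 1, the one farthest from them, the Alas1 sum was -0.67. Over the 6 fits that each left out 1 liver, its edgeR adjusted p ran from 0.0211 to 0.999. Summed Cyb5a held 832, 542 and 721 CPM in chow LKO livers and 558, 468 and 484 CPM in chow flox livers, overlapping through LKO liver 2 and flox liver 1 (0.47 ± 0.16, SE; edgeR adjusted p 0.717).

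On HFD the Alas1 sum was 723, 566, 418 and 440 CPM in LKO livers and 769, 936, 553 and 628 CPM in flox livers, which overlapped (-0.43 ± 0.16, SE; edgeR adjusted p 0.36). Over the 8 fits that each left out 1 liver it ran from -0.60 without LKO liver 1 to -0.28 without flox liver 2. None of these fits passed, with edgeR adjusted p between 0.0916 and 0.737. The Alad sum was 130, 137, 114 and 116 CPM in HFD LKO livers and 151, 171, 139 and 160 CPM in HFD flox livers. Every LKO liver lay below every flox liver, yet the fold change of -0.32 ± 0.08 missed the threshold (edgeR adjusted p 0.11). It passed without flox liver 3 (-0.37, edgeR adjusted p 0.0308). That liver had the lowest Alad sum of the flox livers, so leaving it out widens the difference by itself. The other members' sums differed by between -0.25 and 0.27 on chow and between -0.07 and 0.09 on HFD.

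**Figure D4:**
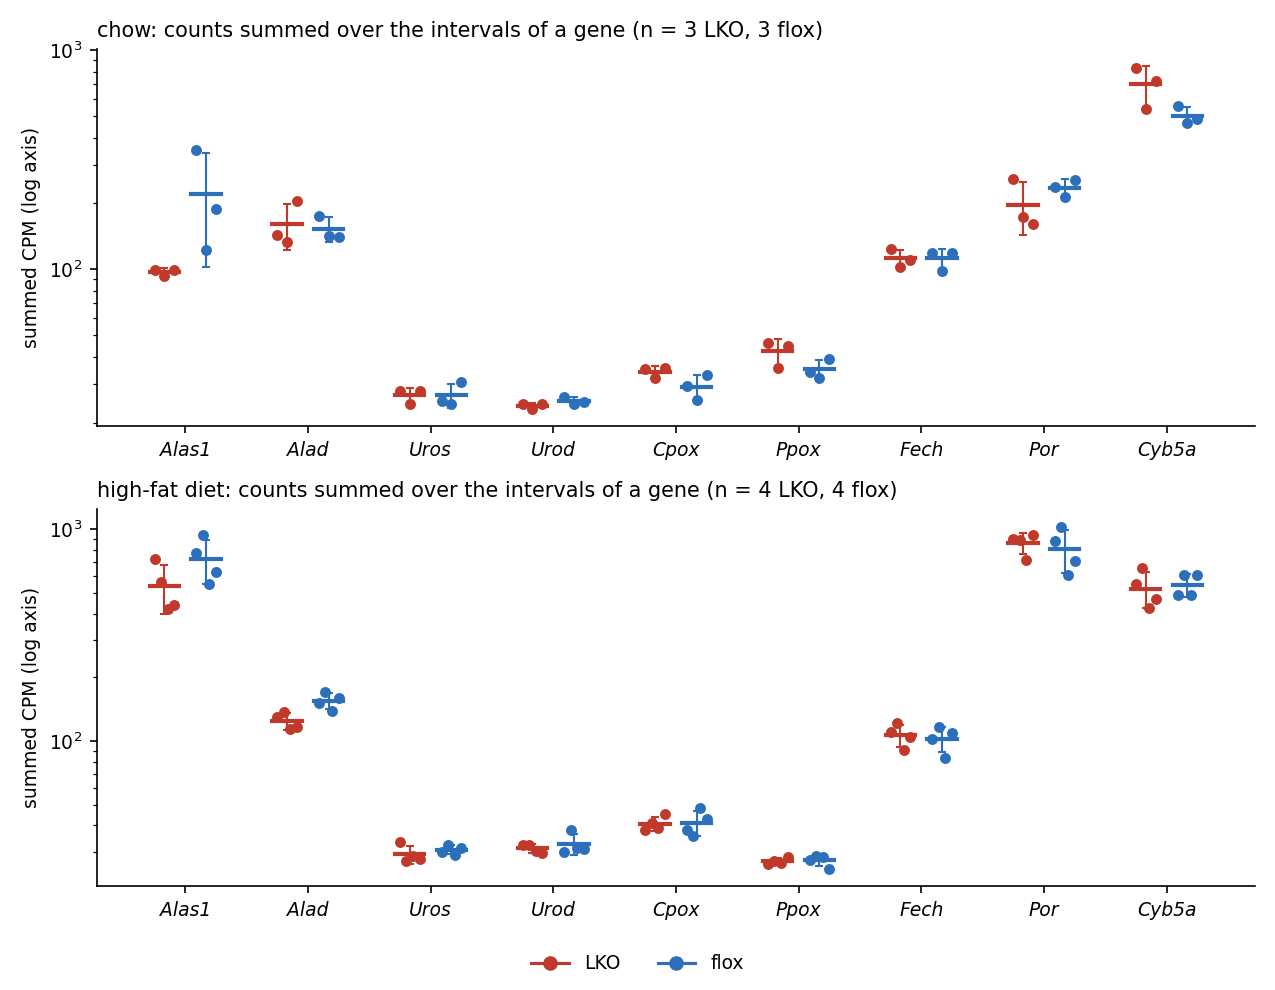
CPM summed over all intervals of each gene (y axis, log scale), 1 point per liver with mean and SD, LKO in red on the left and flox in blue on the right, on chow above and high-fat diet below. Chow LKO livers lie together at 92.9 to 99.6 CPM for Alas1, under flox livers spread from 123 to 352 CPM, and on high-fat diet the groups are apart for Alad.

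Whether the genotype effect differed between diets was tested on 73945 intervals that overlapped by at least 50% between the tables. All 14 livers were in 1 fit. Library depth and the interval tables differed with diet, and a fast is recorded for the HFD mice only. These cannot be told apart from diet here. Of the matched intervals, 93 belonged to the 9 genes and 0 were called, beside 0.183% of all matched intervals. At an unadjusted p under 0.05, 13 of the 93 lay higher (HFD effect minus chow effect) and 14 lower, beside 5498 of all 73945 in either direction. The higher ones were 9 of Alas1 and 4 of Por, and the lower ones 12 of Cyb5a and 2 of Alad. DESeq2 called 0 of the 93 and limma-voom 6, of which 2 belonged to Alas1 and 4 to Cyb5a, and over all matched intervals limma-voom called 498 and edgeR 135. At Alas1 all 13 matched intervals had a less negative effect on HFD than on chow, with a median difference of 1.10. Median effects there were -0.40 on HFD and -1.56 on chow. The smallest p was at chr9:106231289-106231789 on HFD, where the difference was 1.38 ± 0.37 (SE; edgeR adjusted p 0.191). It passed without chow flox liver 2 at 1.67 (edgeR adjusted p 0.00618) and without chow LKO liver 3 at 1.82 (edgeR adjusted p 0.0336), and it was 0.77 without chow flox liver 1. Over the 14 fits that each left out 1 liver, its edgeR adjusted p ran from 0.00618 to 0.543. At the matched chow interval, flox liver 2 and LKO liver 3 lay nearest to the other genotype. Leaving out either of them thus widens the chow effect by itself.

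At Cyb5a the difference was negative at 38 of 39 matched intervals, with a median of -0.56, from median effects of -0.07 on HFD and 0.52 on chow. The smallest p was at chr18:84883699-84884199 on HFD, at -1.13 ± 0.30 (SE; edgeR adjusted p 0.185). At Por 15 of 16 differences were positive, and the smallest p was at chr5:135720925-135721425, at 1.32 ± 0.34 (SE; edgeR adjusted p 0.153). That difference passed without chow flox liver 2 (1.48, edgeR adjusted p 0.0337), the chow flox liver nearest to the LKO livers there. At Alad all 9 differences were negative, and the interval called on HFD differed by -1.13 ± 0.38 (SE; edgeR adjusted p 0.399), from effects of -0.91 on HFD and 0.25 on chow. The other 16 matched intervals had edgeR adjusted p of at least 0.816. How often the differences of other genes share a sign was not counted, and intervals of a gene share the same livers. As given above, the names of chow intervals move with the direction of the chow effect, which enters these differences. The counts of signs are thus descriptions.

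**Figure D5:**
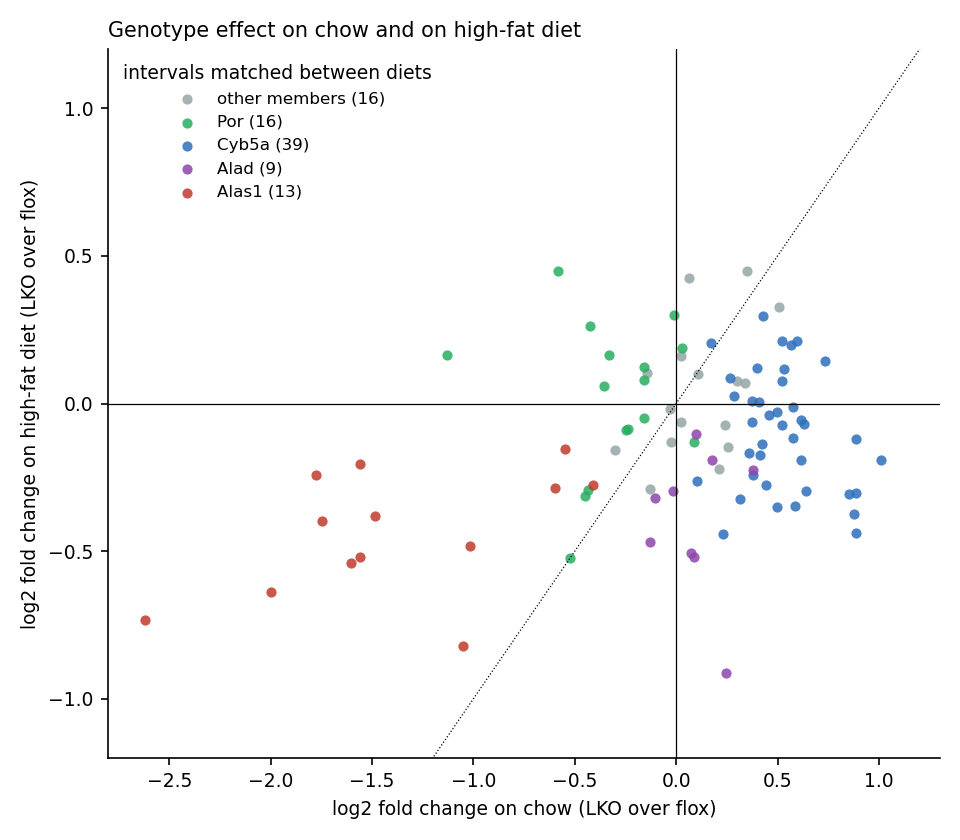
Log2 fold change (LKO over flox) on chow (x axis) and on high-fat diet (y axis, on a wider scale) for the 93 intervals matched between the tables, coloured by gene. The dotted line marks equal effects. The 13 Alas1 intervals lie below 0 on both axes and closer to 0 on high-fat diet, and the 39 Cyb5a intervals lie above 0 on chow and on either side of 0 on high-fat diet.

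Related genes were counted by lists. Of 12 other genes of haem synthesis and mitochondrial haem steps with intervals, none was called on either diet. Their median fold change was 0.04 over 56 chow intervals and -0.04 over 72 HFD intervals. Of 12 other genes of microsomal and mitochondrial electron supply, none was called on chow and 1 was called on HFD, at 1 of the list's 105 intervals, beside 0.751% of all HFD intervals. Mtarc1, a molybdenum enzyme that works with cytochrome b5, rose at chr1:184784309-184784809, with 8.33 ± 1.80 CPM in LKO and 4.24 ± 1.13 CPM in flox livers (SD, n = 4 each; log2 0.97 ± 0.23 SE, edgeR adjusted p 0.0378).

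Of 12 genes of haem breakdown, transport and binding, 11 had intervals, and 1 was called, on HFD, at 1 of 92 intervals, beside the same share of the table. Tdo2, a haem enzyme that degrades tryptophan, fell at chr3:81970844-81971344, with 9.06 ± 2.68 CPM in LKO and 15.1 ± 1.51 CPM in flox livers (SD, n = 4 each; log2 -0.74 ± 0.18 SE, edgeR adjusted p 0.0484). Of 15 regulators known to act on Alas1 or Por, 1 was called, also on HFD, at 2 of the list's 627 intervals, beside 0.303% of all HFD intervals called lower. These shares lie near those of the whole table. Ppara, a receptor for fatty acids, fell at 2 of its 108 intervals, and at chr15:85750025-85750525 it held 4.20 ± 1.80 CPM in LKO and 9.43 ± 2.69 CPM in flox livers (SD, n = 4 each; log2 -1.15 ± 0.25 SE, edgeR adjusted p 0.0186). No interval of the 15 regulators passed on chow, where 478 intervals had a median of -0.11.

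Markers of other cells were summed in the same way. No interval of the Kupffer, sinusoidal endothelial, stellate, biliary, lymphocyte, neutrophil or erythroid lists was called in either table. Biliary sums on HFD did not overlap, at 59.5 to 65.4 CPM in LKO and 52.9 to 59.4 CPM in flox livers. On chow they overlapped, at 77.0 to 97.0 CPM in LKO and 81.9 to 88.5 CPM in flox livers. Sinusoidal, stellate, lymphocyte and neutrophil sums overlapped in both tables. Kupffer sums were 58.3 to 86.1 CPM in chow LKO and 68.8 to 100 CPM in chow flox livers, and 125 to 143 CPM in HFD LKO and 96.2 to 143 CPM in HFD flox livers. Erythroid sums, of interest because erythroid cells also make haem, were 96.7 to 104 CPM in chow LKO and 104 to 107 CPM in chow flox livers, and 96.8 to 110 CPM in HFD LKO and 93.2 to 107 CPM in HFD flox livers. The Kupffer marker Timd4, the stellate marker Dcn and the biliary markers Krt7 and Krt19 had no interval in either table. Only 7 of the 10 erythroid markers had chow intervals and 6 had HFD intervals. The part of these cells in the member values was not tested.

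Across the 8 HFD livers, the genes whose summed log2 CPM was most like that of Alas1 were Hmgb1 (Pearson r 0.99), Zadh2 (0.98), Dazap1 (0.98), Dgat2 (0.98) and Afap1l2 (0.97). Among the other members r ran from -0.58 for Cpox to 0.85 for Alad. These values describe 8 libraries that differ in depth and genotype, and all genes were measured in the same libraries. The 5 genes were the highest of all genes measured.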

How the data were processed

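ATAC-seq libraries of 14 livers were used. The authors deposited 1 table of whole-number counts of aligned reads per 501 bp interval for each diet, in mm10 coordinates, per the labels. Per the submitters' processing notes, the tools included bedtools, HOMER 4.11, ChIPseeker, MACS2 2.2.7.1, DESeq2, Bowtie2 2.4.2 and Trim Galore 0.6.7, with no role stated. Treatment of duplicate and mitochondrial reads, any shift for the transposase, and pooling before calling are not stated in the labels. Interval names begin with the genotype of the call. HFD columns match single labelled mice. Chow columns were used as members of their group.

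Intervals were given to genes by the bounds of 21900 protein-coding RefSeq genes (GRCm38.p6, the assembly behind mm10) and a limit of 50000 bp. Each table was fitted whole in edgeR 4.0.16 (R 4.3.3) with TMM factors, filterByExpr and the quasi-likelihood test of genotype, with Benjamini-Hochberg adjustment over all intervals at 0.05. CPM are counts scaled to the library's TMM-adjusted total within intervals. Gene sums and the difference between diets (73945 matched intervals, at least 50% overlap) were fitted likewise. The scripts were tested on simulated data. Sequences are from RefSeq (GRCm38.p6), matched by symbol for 7 of the 9 genes. Alternatives were RLE and unscaled sizes, no filter, a filter of 1 CPM, DESeq2 1.42.0, limma 3.58.1 (voom with quality weights), a replicate block, each library left out, 10000 bp for 50000, and 80% overlap. Fits without both chow libraries numbered 2, and without HFD LKO 1 and flox 3, were added after seeing the data.

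Named intervals are, per gene and table, the one with the smallest p, the most open one and every called one. Of the related lists, genes with a called interval are named. Members and lists were chosen with earlier results of these data known.

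No library repeated another: the closest pair within a group had a chi-square of 2.49 per degree of freedom. Depth per library is given above. The p-values weigh the difference between genotypes against the spread between these livers, which the fit moderates over all intervals. The main fits did not pair libraries by number. In chow, same-numbered libraries deviated together (r of 0.184, 0.533 and 0.189 over intervals). The number counts as pairing them only by the rule that each such r is over 0.1: LKO 1 correlated more with flox 3 (0.278) than with flox 1, LKO 3 reached 0.184 with flox 1, and no label names a shared litter or day. The block changed no member's call there.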

Additional observations from a re-analysis of the deposited data

Results flagged for a closer look

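Among 40 groups of 4 HFD livers checked at the named intervals and sums, 2 held a liver far from the other 3 (by Dixon's gap ratio), and chance flags about 1 group in 20. Both were flox liver 2. At the most open Alas1 interval, chr9:106231289-106231789, it held 68.7 CPM and the other flox livers 51.7 to 53.6 CPM (ratio 0.888). At the Por interval with the smallest p, chr5:135681110-135681610, it held 9.85 CPM and the other flox livers 5.99 to 6.53 CPM (ratio 0.86). The same liver was the highest of the 8 at 22 of 28 Alas1 intervals and 25 of 68 Por intervals, and had the largest HFD library at 10.4 M counts. The part of depth in these values was not tested.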

How the results depend on the processing

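Counts of member intervals called depended on the tool and on single livers. On chow, 0 were called by edgeR, with TMM, RLE or no scaling, with any filter and with the replicate block, against 12 by DESeq2, 14 by limma-voom, 0 to 16 when 1 liver was left out and 4 without both livers numbered 2. These were all of Alas1 (lower) or Cyb5a (higher), and over the whole chow table edgeR called 20, DESeq2 544, limma-voom 677, the block 126, and edgeR 604 without flox 2. On HFD, the 1 called interval became 2 with no scaling factor, 11 with the replicate block, 17 without LKO 1 and flox 3, and 0 to 8 when 1 liver was left out. LKO 1 and flox 3 were left out because they lay nearest to the other genotype, which by itself widens the difference between genotypes: the whole HFD table then had 1883 calls, against 795, so these values support nothing about the members. HFD numbers gave same-number correlations of -0.011 to 0.177 and share only a number, and the block is given here alone.

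For the diet difference the 0 became 6 under limma-voom, 4 without both chow livers numbered 2 and 0 to 6 when 1 liver was left out. For gene sums, 0 to 1 member passed on chow and on HFD when 1 liver was left out, and 2 on HFD with the replicate block and without LKO 1 and flox 3. Of 581 refits of 33 named tested values, 575 kept their direction. The 6 reversals were small values: the chow Uros interval (-0.030 without LKO 3, -0.035 without flox 1, -0.029 without flox 2, within -0.035 to 0.15 over the livers left out), the chow Alad sum (-0.045 under limma-voom, -0.14 without LKO 3, up to 0.19) and the HFD Cyb5a sum (0.025 without LKO 3, down to -0.19). The causes were not tested. Counting only intervals within 10000 bp, or matching at 80% overlap, moved no count of member calls. With 3 or 4 livers a group, differences smaller than the spread between livers were not detectable, and intervals chosen in the same livers favour the direction of the genotype they were called in.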
